A study of Mus musculus with 16 samples.

Results

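The 43 genes described here act in the response to low oxygen and in the vessels of the brain. They were taken as a fixed list of 7 oxygen-sensing genes, 3 other hypoxia response genes, 6 angiogenic ligands, 6 vascular receptors, 6 endothelial junction genes, 8 vascular matrix genes, 3 barrier transporter genes and 4 other endothelial genes, out of the 21770 protein-coding genes of GENCODE M39. A gene was called marked in a library when a peak of that library's list lay on the same strand over at least 1 base of its exons. Of the 43 genes, 37 were marked at least once (53.4% of all protein-coding genes were, a set that includes many genes cortex does not use) and 7 in all 8 lists (19.1% of all protein-coding genes). They held 365 of the 169564 peaks.

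The peaks came from MeRIP-seq, in which RNA fragments that carry N6-methyladenosine (m6A) are pulled down with an antibody (IP) and peaks are called where they exceed the input RNA. Peri-infarct cortex of adult male C57BL/6J mice aged 6 to 8 weeks was used, in surgery groups of 6. In the MCAO/R groups the right middle cerebral artery was blocked with a nylon thread for 2 h and then reperfused for 0 h, 6 h or 24 h, and Sham mice had the same surgery without the thread. All groups had anaesthesia and neck surgery. Each of the 4 groups (Sham and reperfusion for 0 h, 6 h and 24 h after MCAO) had 2 IP libraries. The labels and methods do not say which mice, or how many, made each library, so the spread between the 2 libraries of a group may be technical. Input RNA was not analysed here. A peak needs enough transcript to be called, so a change in m6A, in RNA per cell or in the number of vascular cells in the tissue cannot be told apart in these lists. The lists held 18775 and 20152 peaks in Sham and 19072 to 24078 in the 6 MCAO/R libraries. Each peak has a score without a stated scale, given here as its percentile among the peaks of its own list, where 100 is the highest.

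In low oxygen, prolyl hydroxylases of the Egln family stop marking HIF alpha subunits (Hif1a, Epas1) for Vhl-mediated breakdown, and HIF with its partner Arnt then switches on genes such as Vegfa, Adm and Slc2a1. VEGF and angiopoietin ligands act on endothelial receptors (Kdr, Flt1, Flt4, Tek, Tie1). The blood-brain barrier rests on tight and adherens junctions between endothelial cells, on a basement membrane with collagen IV and on pericytes held by Pdgfb and Pdgfrb, and it becomes leaky after ischemia. m6A is an RNA mark written mostly in the sequence RRACH (R is A or G, H is A, C or T in the DNA letters used here).

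Overlapping peaks of one strand, by 1 exonic base or more, were merged to regions across the lists. The 43 genes had 150 regions, of which 6 had a peak in all 8 lists. The stretches below show the RRACH site, in capitals, that lay nearest the middle of the bases shared by the most lists, in 5 of these 6 regions. For a 3' UTR 30 bases are given, and for the coding sequence (CDS) of Tjp1 up to 120 bases, with all RRACH sites in capitals. Sequences and coordinates are GRCm39, written 5' to 3' on the gene's strand. They show where in each transcript the steadiest peaks of these genes sat.
Vegfa, 3' UTR, chr17:46329306-46329335, minus strand: gtttgactgctgtGGACTtgtgttgggagg
Egln1, 3' UTR, chr8:125637127-125637156, minus strand: cttctattttgccAGACCtgtcacctaact
Slc2a1, 3' UTR, chr4:118993821-118993850, plus strand: tttaatgaaagcaAGACTgctgctcagatc
Egln3, 3' UTR, chr12:54227400-54227429, minus strand: ctgctcttgctaaAGACTgactgtggtgtg
Tjp1, CDS, chr7:64952614-64952733, minus strand: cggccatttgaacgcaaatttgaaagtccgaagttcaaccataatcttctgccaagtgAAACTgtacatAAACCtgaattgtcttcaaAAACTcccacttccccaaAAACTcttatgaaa
The Vegfa, Egln1, Slc2a1 and Egln3 stretches each hold the only RRACH site of the shared bases, and the Vegfa site is GGACT.

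The next stretches come from the regions that were gained or lost against Sham and ranked highest. Gained means a peak in both lists of a time and in neither Sham list, and lost means the opposite. Regions were ranked by the lower percentile of the 2 libraries of the gaining time, or of Sham for a lost region. For a region gained at several times the time with the higher such value counted. Adm thus ranked by 53.1 at 6 h, although it was at 29.9 in a 24 h library.
Rhoj, 3' UTR, gained at 6 h and 24 h, chr12:75447626-75447655, plus strand: taattacaaaaaaAAACTtttctaaactta
Pecam1, CDS, gained at 0 h and 24 h, chr11:106579792-106579866, minus strand: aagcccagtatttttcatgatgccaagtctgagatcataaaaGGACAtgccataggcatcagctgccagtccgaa
Adm, end of the CDS, gained at 6 h and 24 h, chr7:110228334-110228383, plus strand: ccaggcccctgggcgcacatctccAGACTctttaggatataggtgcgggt
Egln1, 3' UTR, lost at 24 h, chr8:125637348-125637377, minus strand: aggatggacagagAGACAcctgcctggtat
In the 3' UTR stretches of Rhoj and Egln1 the capitals again mark the site nearest the middle, and each holds a further RRACH site in lower case. The Rhoj region held 6 RRACH sites in its 225 shared bases. A pair of lost Tjp1 regions ranked among these 6 regions as well, but their shared bases (50 each) held no RRACH site, so no sequence is shown. Of the 32 regions of these genes found in 4 or more lists, 20 (62.5%) had an RRACH site within the shared bases.

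In the full lists more of the genes were marked after MCAO/R than in Sham. Sham had 19 and 18 marked genes in its 2 libraries, the 0 h group 23 and 24, the 6 h group 20 and 25 and the 24 h group 24 and 26. The group means were 18.5 ± 0.707 in Sham, 23.5 ± 0.707 at 0 h, 22.5 ± 3.54 at 6 h and 25.0 ± 1.41 at 24 h (SD, n = 2 each), and no MCAO/R library was as low as either Sham library. Over all protein-coding genes the marked number was 6780 and 7258 in Sham and 7140 to 8172 in the MCAO/R libraries, so there the groups overlapped. List length moved with these counts: with the 18775 highest-scoring peaks of every list, the listed genes marked were 19 and 17 in Sham, 22 and 19 at 0 h, 17 and 19 at 6 h, and 23 and 24 at 24 h. Only at 24 h were both libraries then above both Sham libraries. Over all protein-coding genes these shortened lists marked 6780 and 6895 genes in Sham and 6971 to 7096 in the MCAO/R libraries, all 6 of which were then above both Sham libraries. Among the higher-scoring 50% of each list the order changed. The listed genes marked were then 7 and 13 in Sham, 10 and 13 at 0 h, 13 and 11 at 6 h, and 12 and 12 at 24 h. Sham replicate 2 was thus above both 24 h libraries in that setting. In MCAO/R-24 h the 43 genes held 51 and 60 peaks, or 2.67 and 2.70 per 1000 peaks of the list, against 1.72 to 2.37 per 1000 in the other 6 libraries. No p is given for these counts, because the genes were chosen with earlier results known.

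**Figure D1:**
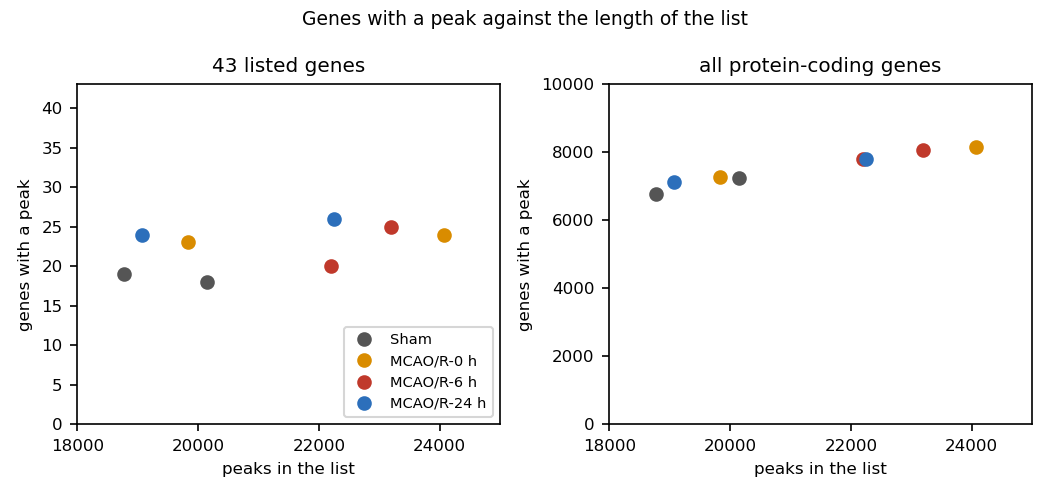
Number of the 43 genes (left) and of all protein-coding genes (right) with a peak, against the number of peaks in the list, one point per IP library coloured by group. The Sham libraries have 19 and 18 of the 43 genes and the MCAO/R libraries 20 to 26, while over all protein-coding genes the number follows the length of the list.

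The marked genes were 86.0% of the 43, and those in all 8 lists 16.3%. The 7 genes in all lists were Egln1, Egln3, Vhl, Vegfa, Pdgfrb, Tjp1 and Slc2a1. A further 12 were marked in 5 to 7 lists and 18 in 1 to 4 lists. Bnip3, a mitochondrial hypoxia target, Flt4, the VEGF-C receptor, Mmp9, a matrix protease, Timp1, its inhibitor, Nos3, the endothelial nitric oxide synthase, and Sox17, an endothelial transcription factor, had no peak in any list. The median length of the main transcript was 4414 nt in the 7 genes in all lists, 3568.5 nt in those in 5 to 7, 4229.5 nt in those in 1 to 4 and 3411.5 nt in the 6 in none. The median 3' UTR was 1865, 1174.5, 1021 and 866.5 nt in the same order.

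**Figure D2:**
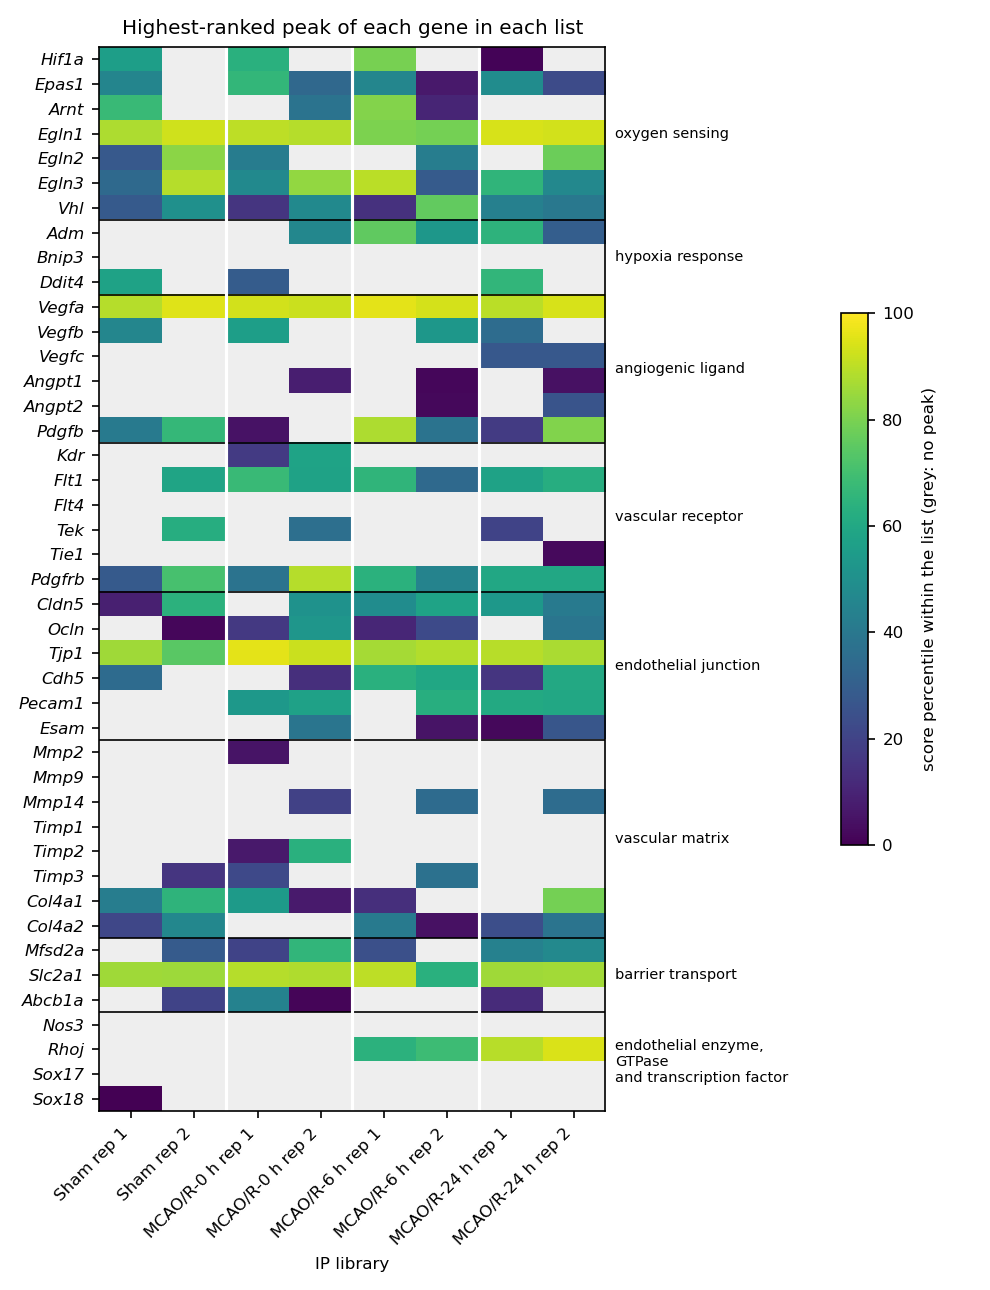
Score percentile of the highest-ranked peak of each of the 43 genes (rows, grouped by role) in each IP library (columns); grey cells have no peak. Vegfa, Egln1, Slc2a1 and Tjp1 are bright in every column, Rhoj appears only in the 6 h and 24 h columns, and 6 rows are empty.

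All 7 oxygen-sensing genes were marked. Egln1, the main prolyl hydroxylase, had its steadiest peak in the 3' UTR, 311 nt after the stop codon. Its percentile there was 87.6 and 92.8 in Sham, 89.9 and 88.7 at 0 h, 80.2 and 79.1 at 6 h and 93.9 and 93.3 at 24 h. Both 6 h libraries were below all others and both 24 h libraries above all others, with group means of 90.2 ± 3.72 in Sham, 79.7 ± 0.778 at 6 h and 93.6 ± 0.467 at 24 h (SD, n = 2 each). In the exact permutation test among the 4 groups, which ran over all 105 divisions of the libraries into pairs and was one-sided towards a larger difference, Egln1 had p = 0.0571, and 0.706 after Benjamini-Hochberg adjustment over all 4735 regions found in every list. When the exact permutation was kept within replicate numbers, the unadjusted p was 0.125. Without Sham replicate 1 the mean MCAO/R percentile differed from Sham by -5.31, and without Sham replicate 2 by -0.0562. A neighbouring Egln1 region, 111 nt after the stop codon, was listed in Sham at 51.9 and 66.0, in 1 library at 0 h at 65.4 and in 1 at 6 h at 69.0, and in neither library at 24 h.

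Egln3, a prolyl hydroxylase that is itself a HIF target, had a region whose shared bases were centred 20 nt after its stop codon. The percentiles were 34.2 and 88.9 in Sham, 47.6 and 83.9 at 0 h, 89.6 and 28.8 at 6 h and 65.6 and 46.5 at 24 h. The 2 Sham libraries alone spanned nearly the whole range of the others. Vhl, the ubiquitin ligase subunit that binds hydroxylated HIF, was marked in every list through one or the other of a pair of regions. The region in its coding sequence, 180 nt before the stop codon, was in both Sham lists (28.2 and 34.3), otherwise only in the second 6 h library (73.5), and so counted as lost at 0 h and 24 h. The Vhl region 107 nt after the stop codon was in every list other than Sham replicate 1, at 14.3 to 76.2.

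The HIF subunits were marked less evenly. Hif1a had a peak in 4 lists, those of replicate 1 of each group, but not in the same region. A coding region, 768 nt before the stop codon, was listed in Sham (56.2), at 0 h (63.6) and at 6 h (79.5). The 24 h peak lay in the 5' UTR, at 1.06. Epas1, which encodes HIF-2 alpha, was marked in 7 lists, each time in the 5' UTR of its first exon, where its percentile was low (6.55 to 48.6). Its 3' UTR also had a region 308 nt after the stop codon in 1 library each of Sham (45.4), 0 h (66.3) and 6 h (40.8), and another 771 nt after it in that 6 h library (45.9). Arnt was marked in 4 lists and Egln2, whose most frequent region lay in the 5' UTR, in 5. Among the hypoxia targets, Ddit4, an inhibitor of mTORC1, was marked in 3 lists at 29.2 to 65.9.

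Adm encodes adrenomedullin, a vasodilator peptide induced by HIF. It had no peak in either Sham library or in 0 h replicate 1, and its main region was listed at 46.4 in 0 h replicate 2, at 75.6 and 53.1 at 6 h and at 64.8 and 29.9 at 24 h. The shared bases were centred 14 nt before the stop codon, so they ran across it. All 4 libraries of 6 h and 24 h had the region and neither Sham library did.

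Among the angiogenic ligands, Vegfa was the most heavily marked, with 31 peaks in 8 regions. Its 3' UTR region, 405 nt after the stop codon, stood at 89.0 and 94.9 in Sham, 93.1 and 92.0 at 0 h, 95.7 and 93.5 at 6 h and 89.6 and 93.9 at 24 h. Each MCAO/R group overlapped Sham, while both 6 h values were above both 0 h values (exact permutation test among the groups, p = 0.714, adjusted 0.932). A 5' UTR region of Vegfa was in 7 lists at 29.4 to 83.9, missing only in 6 h replicate 2, and a second 3' UTR region, 1142 nt after the stop codon, was in 6 lists. Vegfc, the lymphatic and vascular VEGF, was listed only in the 24 h libraries, 107 nt after its stop codon, at 27.3 and 27.6, and its 100 shared bases held 4 RRACH sites. Pdgfb, which recruits pericytes, was marked in 7 lists at 4.84 to 87.7. Vegfb was in 4 lists. Angpt1, which stabilises vessels through Tek, and Angpt2, its antagonist, had no Sham peak and appeared in 3 and 2 MCAO/R lists, at 1.83 to 8.52 and at 2.2 and 26.1.

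Flt1, which encodes VEGF receptor 1, showed an uneven placing along its transcript. Besides the full-length transcript of 30 exons, the annotation holds a short one (ENSMUST00000110529.7) that ends in a long exon 13 of 4375 nt, at chr5:147571969-147576343 on the minus strand. This form encodes the soluble receptor that binds VEGF without signalling. Of 31 Flt1 peaks, 23 had their middle in that exon, 16 of them in its 4066 nt that splicing removes from the full-length transcript and 7 in the part that both share. The other peaks were 7 in shared exons upstream and 1 in the exons that are in the full-length transcript alone, which sum to 4646 nt. Peaks over or beside the stop codon of the short form were found in 6 libraries, at 58.5 in Sham replicate 2, 38.2 and 56.0 at 0 h, 65.4 in 6 h replicate 1 and 57.8 and 32.8 at 24 h. The Flt1 stretch around that stop codon, chosen after its values were seen, has the RRACH site nearest the middle of the shared bases in capitals and holds a further one, ggact, in lower case.
Flt1, end of the short coding sequence, chr5:147575932-147575961, minus strand: acaaagtcatgtcAAACAttaaaggactca
A region 338 nt after that stop codon was gained at 0 h (34.7 and 57.5). Flt1 had no peak in Sham replicate 1. Unspliced RNA of the full-length transcript holds the same bases as the short form, and these cannot be told apart in the lists.

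**Figure D3:**
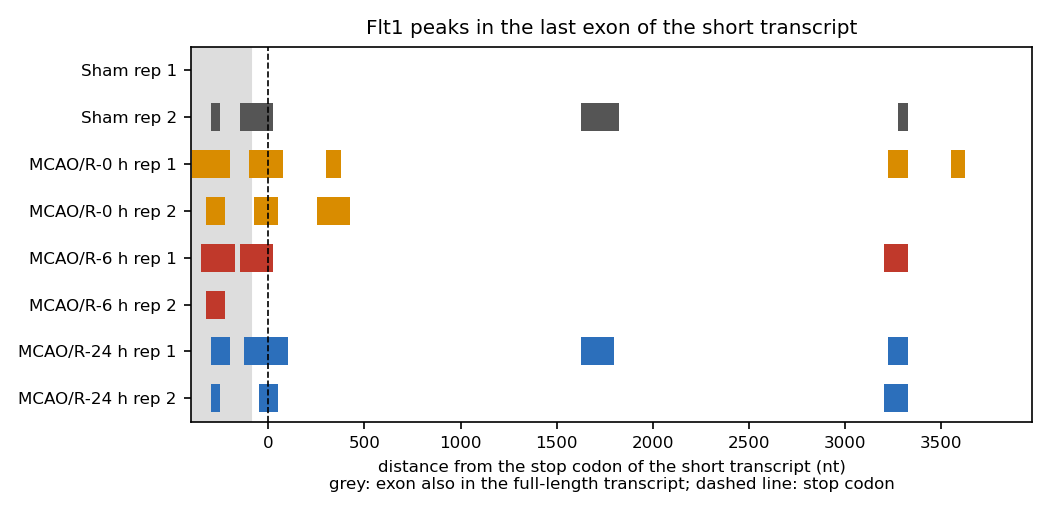
Peaks of Flt1 in the last exon of its short transcript by library; the x axis is the distance in nt from the stop codon of the short form (dashed line), and grey marks the bases that the full-length transcript shares. Bars cluster at the stop codon in 6 of the 8 libraries and recur near 3300 nt in 5, and Sham replicate 1 is empty.

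Kdr, VEGF receptor 2, was listed only at 0 h, in its 3' UTR 261 nt after the stop codon, at 16.8 and 58.0. Pdgfrb, the pericyte receptor for PDGF-B, was marked in every list in its 3' UTR, with percentiles of 28.2 and 70.8 in Sham, 38.2 and 89.0 at 0 h, 63.8 and 44.9 at 6 h and 60.0 and 59.9 at 24 h. The Sham range covered that of the 6 h and 24 h libraries. Tek and Tie1, the angiopoietin receptors, were in 3 lists and 1 list.

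All 6 endothelial junction genes were marked. Tjp1, the scaffold ZO-1, had 37 peaks, the most of any of these genes, in 11 regions. Its coding region 582 nt before the stop codon was at 85.6 and 74.6 in Sham, 96.0 and 83.5 at 0 h, 70.8 and 88.5 at 6 h and 79.0 and 87.2 at 24 h. Other Tjp1 regions differed in presence. A region 2482 nt before the stop codon was missing in Sham and listed in 0 h replicate 2 (46.7), at 6 h (50.4 and 41.0) and at 24 h (33.8 and 33.9). A Tjp1 region 3707 nt before the stop codon was listed only in Sham, at 41.9 and 61.2. A Tjp1 region further upstream, 4382 nt before the stop codon, was in both Sham lists (55.7 and 73.9), in neither at 0 h and in 1 library each at 6 h (74.9) and 24 h (89.1). The gained region lay 126 exonic nt from the nearest Sham peak, and the gene as a whole was marked in every list.

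Pecam1, an adhesion molecule of endothelial junctions also called CD31, had no peak in Sham. Its coding region was at 53.3 and 57.0 at 0 h, at 62.8 in 6 h replicate 2, and at 60.9 and 60.1 at 24 h. The region was thus missing in 6 h replicate 1 and in both Sham libraries, and its 5 values in the other libraries spanned only 53.3 to 62.8. Cdh5, VE-cadherin, was marked in 6 lists, and its region 688 nt after the stop codon was in no Sham list, in 0 h replicate 2 (13.2), in 6 h replicate 2 (39.4) and at 24 h (15.3 and 60.4). Ocln, a tight junction protein, had a region gained at 0 h close to its stop codon (16.7 and 52.7), which was also listed in 6 h replicate 2 (22.4) and 24 h replicate 2 (38.97). Elsewhere in its coding sequence Ocln had a peak in Sham replicate 2 (1.93) and in 6 h replicate 1 (10.7), so it was not gained as a gene. Cldn5, the main claudin of the barrier, was in 7 lists at 8.96 to 64.1. Esam had no Sham peak and was marked in both 24 h libraries, but in different regions, at 2.28 and 26.9.

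Of the vascular matrix genes, Col4a2, a basement membrane collagen chain, had a coding region in Sham alone (21.5 and 46.2) and a 3' UTR region at 24 h alone (24.0 and 36.7). As a gene it was unmarked in both 0 h libraries and marked in all others. Col4a1 was in 6 lists at 7.10 to 79.1. Timp2, a metalloprotease inhibitor, was marked at 0 h only, in its 5' UTR in one library (6.99) and in its 3' UTR in the other (63.5). Mmp2, Mmp14 and Timp3 were in 1, 3 and 3 lists.

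Slc2a1, the glucose transporter GLUT1 of the barrier, carried a pair of 3' UTR regions. The first, 259 nt after the stop codon, was at 83.2 and 83.7 in Sham, 88.9 and 86.2 at 0 h, 90.2 and 63.7 at 6 h and 85.6 and 75.3 at 24 h. The MCAO/R libraries lay on both sides of the Sham pair. The second, 784 nt after the stop codon, was in every list other than 6 h replicate 2, at 77.6 to 88.2. Mfsd2a, a lipid transporter that restrains transcytosis, was in 6 lists at 20.3 to 65.8, and Abcb1a, an efflux pump, in 4 at 1.33 to 44.5.

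Rhoj, an endothelial small GTPase that acts in vessel formation, was unmarked in Sham and at 0 h. Its 3' UTR region, 584 nt after the stop codon, stood at 64.2 and 68.6 at 6 h and at 89.3 and 94.2 at 24 h. Both 24 h values were above both 6 h values. The listed peaks were long, with 475 and 350 exonic nt at 6 h and 525 and 575 nt at 24 h. Sox18, an endothelial transcription factor, had a single peak, in Sham replicate 1 at 0.368.

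**Figure D4:**
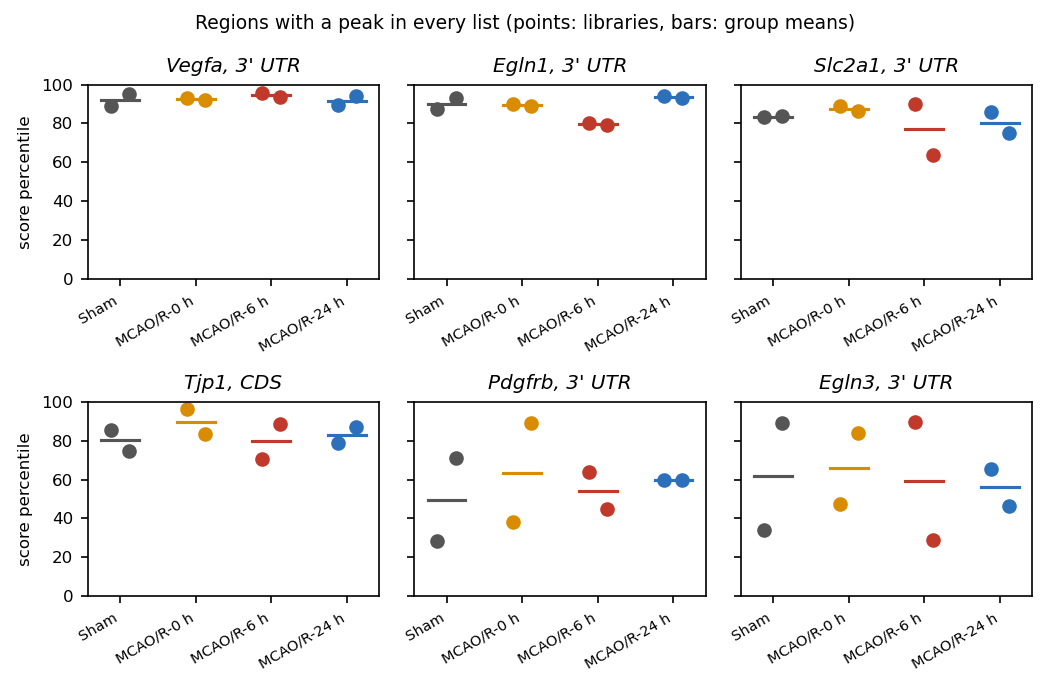
Score percentile (y axis, 0 to 100) of the 6 regions with a peak in every list; points are the 2 libraries of a group and bars their mean. Vegfa stays between 89.0 and 95.7, both Egln1 values at 6 h (80.2 and 79.1) lie below the other groups and the 2 Sham libraries of Egln3 and Pdgfrb lie far apart.

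None of these 6 regions had p under 0.05 in the test among the groups, against 6.67% of all 4735 regions in every list, and none of those passed after adjustment (smallest adjusted p of the exact permutation test 0.673). In the two-sided exact permutation test of Sham against the 6 MCAO/R libraries, which can go no lower than p = 0.0357, none of the 6 had p under 0.05 (p of 0.607 to 1), against 6.36% of all regions (301 of 4735). No region passed there after adjustment. The mean percentile differed from Sham by -2.68 for Egln1, 0.995 for Vegfa, 4.08 for Tjp1, -1.79 for Slc2a1, -1.26 for Egln3 and 9.75 for Pdgfrb.

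In all, 10 regions of these genes were gained and 5 lost at one or more times. At 0 h, 4 of the 91 regions found in the 4 lists compared were gained (Pecam1, Flt1, Kdr and Ocln; 3.84% of all regions) and 4 were lost (a pair in Tjp1, Vhl and Col4a2; 1.87%). At 6 h, 3 of 88 were gained (Rhoj, Adm and Tjp1; 4.94%) and 2 lost (Tjp1 and Col4a2; 2.03%). At 24 h, 7 of 97 were gained (Rhoj, Adm, Tjp1, Pecam1, Vegfc, Col4a2 and Cdh5; 3.79%) and 4 lost (Egln1, Tjp1, Vhl and Col4a2; 2.76%). The share of gained regions was thus 4.40%, 3.41% and 7.22% at the 3 times, near the background at 0 h and 6 h and above it at 24 h. The share of lost regions was 4.40%, 2.27% and 4.12%, above the background at 0 h and 24 h, on 4 regions each. These counts rest on single libraries: without one library of the groups compared, Sham or MCAO/R, up to 21, 20 and 31 regions counted as gained and up to 16, 16 and 15 as lost. With 2 libraries against 2 no exact test can go below p = 0.333, so none was made, and the comparisons share the same Sham libraries.

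**Figure D5:**
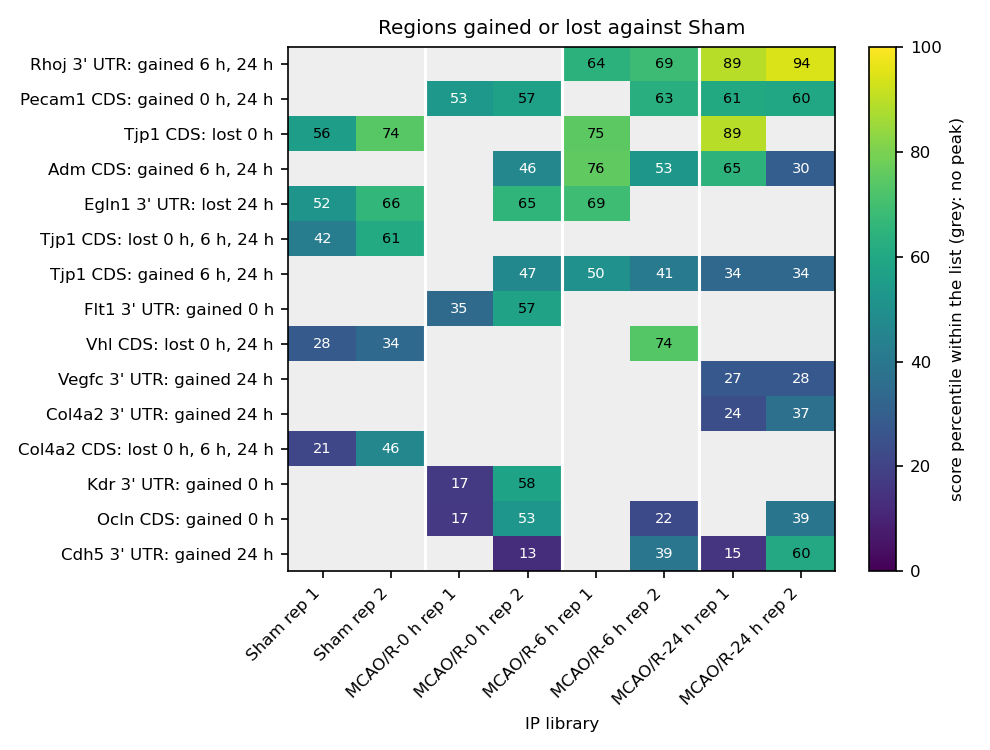
Score percentile (number and colour) in each IP library of the 15 regions gained or lost against Sham, ordered by rank; grey cells have no peak. The Rhoj, Adm, Pecam1 and Tjp1 rows are empty in Sham and filled in 4 or 5 MCAO/R libraries where gained, while a Tjp1 and a Col4a2 region are filled in Sham only.

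Counted by gene, a measure chosen after the regions were seen, 3 of 33 genes were gained at 0 h (Kdr, Pecam1 and Timp2; 4.11% of all protein-coding genes in those lists) and 1 was lost (Col4a2; 1.64%). At 6 h 2 of 32 were gained (Adm and Rhoj; 5.38%) and 0 lost (1.77%). At 24 h 5 of 34 were gained (Adm, Esam, Pecam1, Rhoj and Vegfc; 4.49%) and 0 lost (2.55%). When all lists were cut to 18775 peaks, the 24 h genes were the same 5. Among the higher-scoring 50% of each list only Pecam1 and Rhoj of them were gained at 24 h. Over all protein-coding genes 457 were gained at 24 h with all peaks, 400 with the cut lists and 325 with the higher-scoring 50%.

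Markers of cell types were counted in the same way, in the full lists, whose length differs between libraries. Of the 6 endothelial markers, all of which are among the 43 genes, 2 and 3 were marked in Sham, 3 and 6 at 0 h, 3 and 4 at 6 h and 5 and 4 at 24 h. Of 10 neuronal markers 4 to 6 were marked in every library, with Snap25, Syt1 and Grin1 in none. Of 6 astrocyte markers 3 or 4 were marked, Gfap never. Of 5 microglial markers 2 to 4 were marked, Aif1 never, and of 5 oligodendrocyte markers 1 to 3. Of 5 mural cell markers, which include Pdgfrb, 2 to 5 were marked. Tbr1, a transcription factor of cortical neurons, had a region in all Sham and 0 h libraries and in none at 6 h or 24 h. Of 27 regions of the neuronal markers at 6 h, 2 were lost (7.41%, against 2.03% of all regions) and 1 was gained, in Rbfox3 (3.7%, against 4.94%). At 24 h 2 of 23 were lost (8.7%, against 2.76%) and 1 was gained, in Map2 (4.35%, against 3.79%). Of the endothelial marker regions 3 of 20 were gained at 0 h (15%, against 3.84%), 0 of 16 at 6 h and 2 of 19 at 24 h (10.5%, against 3.79%), and 0 were lost at any time. The other cell types had 0 to 2 regions gained and 0 or 1 lost at a time. At 0 h 0 of 18 astrocyte, 1 of 11 oligodendrocyte (9.09%), 1 of 18 microglial (5.56%) and 1 of 25 mural cell regions (4%) were gained. At 24 h these were 2 of 18 (11.1%), 1 of 7 (14.3%), 1 of 14 (7.14%) and 0 of 24. The astrocyte and oligodendrocyte shares at 24 h were thus above the endothelial one, on few regions each. The part of these markers in the results above was not tested.

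Other genes of the same pathways were taken from wider lists. Their counts also come from the full peak lists and were not repeated at equal list length. Of 25 further hypoxia genes 18 were marked, with 12 in each Sham library, 9 and 11 at 0 h, 10 and 11 at 6 h and 10 and 8 at 24 h. Of their regions 2 of 51 were gained at 0 h (3.92%, against 3.84% of all regions) and 0 of 57 at 6 h (against 4.94%). Lost were 0 at 0 h (against 1.87%) and 2 at 6 h (3.51%, against 2.03%). At 24 h 2 of their 56 regions were gained (3.57%, against 3.79% of all regions) and 4 lost (7.14%, against 2.76%), among the lost ones regions of Slc2a3, the neuronal glucose transporter, and Kdm3a, a histone demethylase, that every Sham, 0 h and 6 h library held. Crebbp, a coactivator of HIF, had a coding region in both Sham and both 0 h libraries and in none later. Another Crebbp coding region went the other way, with no Sham peak, 70.9 in 0 h replicate 2, 79.8 in 6 h replicate 1 and 68.7 and 63.5 at 24 h. Of 27 further endothelial signalling genes 25 were marked, with 9 and 16 in Sham, 15 and 18 at 0 h, 16 and 21 at 6 h and 21 in each 24 h library. Tnfrsf21, a death receptor of the barrier endothelium, and Thbs1, an inhibitor of angiogenesis, each had a region in all 6 MCAO/R libraries and in neither Sham library, at 54.5 to 80.1 for Tnfrsf21 and 2.2 to 71.2 for Thbs1. Other coding regions of Tnfrsf21 had a peak in Sham replicate 2 (71.6 and 63.0), so it was not gained as a gene. Of the regions of these 27 genes 5 of 78 were gained at 0 h (6.41%, against 3.84% of all regions), 5 of 78 at 6 h (6.41%, against 4.94%) and 4 of 84 at 24 h (4.76%, against 3.79%). Lost were 0, 0 and 1 at the 3 times. Of 46 further junction, basement membrane, mural cell and transport genes 35 were marked, with 17 and 20 in Sham, 19 and 26 at 0 h, 22 and 25 at 6 h and 18 and 23 at 24 h. Of their regions 5 of 109 were gained at 0 h (4.59%, against 3.84%) and 5 of 109 at 6 h (4.59%, against 4.94%). At 24 h 3 of 102 were gained (2.94%, against 3.79%), a share below that of all regions. Lost were 1 (0.917%), 2 (1.83%) and 2 (1.96%) at the 3 times, against 1.87%, 2.03% and 2.76%. Taking each gene of these lists by its highest region found in every library, the genes highest in median percentile were Mmp16 (97.8), Ctnnd1 (96.2), Pdgfra (96.0), Ep300 (95.8) and Nrp1 (94.7).

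The peaks of the 43 genes lay more often in the 3' UTR than peaks at large. Per library 48.2% ± 7.36 had their middle in a 3' UTR and 42.8% ± 6.83 in the CDS (SD, n = 8), against 32.6% ± 1.07 and 52.8% ± 1.71 of all peaks. The 3' UTR share was above that of all peaks in 8 of 8 libraries. Counted once per region, by the place of its highest-ranked peak, the 3' UTR share was 34.0%, against 28.4% of all regions. The CDS share was 54.0%, against 51.6%. Non-coding exons held 3.33% of the regions of these genes and 13.4% of all regions. All regions, like all peaks, include those of non-coding genes, so the CDS and UTR shares are not directly comparable. Tjp1, Vegfa, Flt1 and Pdgfrb together gave 122 of the 365 peaks. Of the 16 regions found in 6 or more lists, 10 lay in a 3' UTR, 4 in the CDS and 2 in a 5' UTR. Within 200 nt of the stop codon lay 19.5% ± 3.60 of the peak middles, against 20.4% ± 0.408 of all peaks. RRACH sites numbered 18.9 ± 1.18 per kb of peak sequence, against 18.5 ± 0.161 in all peaks. Neither of these last values differed by more than the spread between libraries.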

How the data were processed

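Peak lists of 8 IP libraries of MeRIP-seq were analysed. Per the methods, the authors used Trim Galore 0.6.7 for trimming and HISAT2 2.2.1 for alignment to GRCm39, kept uniquely mapped reads by samtools, and took peaks from exomePeak2 at cutoffs of 0.05 (p) and 0.5 (log2 fold change). The fragment length is given as about 100 nt in the methods and about 200 nt in the sample records. Whether libraries were pooled for a call is not given in the sources used here. The deposited value of each peak is a score that the authors' peak caller assigned on an undefined scale, and it served only as a rank within its list. Without counts in the lists the depth of each library is unknown, and intervals for counting error could not be computed.

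Python 3.11.15 with numpy 2.4.6, scipy 1.17.1, pysam 0.24.0 and matplotlib 3.10.9 was used. The exonic part of each peak was rebuilt from GENCODE M39 exons, a later release than the one the study used for gene counts, after the code was tested on simulated data. A region was placed by the middle of the bases covered by the most lists, with the CDS of any transcript before UTRs, and distances used the transcript with the longest CDS. Sequences came from the GRCm39 genome. Score percentiles were tested by exact permutation over libraries for all regions in every list, with Benjamini-Hochberg adjustment. Named with values in every list were genes with a region in all 8 lists, gained or lost, or in both lists of 2 or more times but no Sham list. The genes, the wider lists and the markers were chosen with earlier results of these data known. Alternatives left out each library, took the higher-scoring 50% or the same number of peaks (18775), changed the joining of regions (whole spans, or 50% of the shorter part), assigned peaks by largest overlap, permuted within replicate numbers, or changed the placing, window, transcript and motif. Gene-level gained and lost counts were added after the data were seen. The regions of a few marker genes are not reported here.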

Additional observations from a re-analysis of the deposited data

Results flagged for a closer look

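The Egln1 region found in every list lay on opposite sides of Sham at a pair of times. Both MCAO/R-6 h libraries (80.2 and 79.1) lay below both Sham libraries (87.6 and 92.8) and both MCAO/R-24 h libraries (93.9 and 93.3) above them. The mean percentile differed from Sham by -10.5 at 6 h and by 3.4 at 24 h, the latter less than the Sham SD of 3.72. In the exact permutation test among the 4 groups the region had p = 0.0571, adjusted 0.706. The difference between the 2 times was not tested on its own. Groups of 2 libraries are too small for a check of single outlying libraries.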

How the results depend on the processing

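With 2 libraries per group, presence in a list set most counts. Leaving out each library in turn, which asks the remaining library of a group alone, gave 21.9 to 23.0 marked genes per list (22.4 with all), and 7 to 8 genes in all lists. Region counts ranged from 4 to 21 gained and 4 to 16 lost at 0 h, from 3 to 20 and 2 to 16 at 6 h, and from 7 to 31 and 4 to 15 at 24 h. Gene counts ranged from 3 to 7 gained and 1 to 3 lost at 0 h, from 2 to 7 and 0 to 2 at 6 h, and from 5 to 9 and 0 to 2 at 24 h. Each of the highest values came from leaving out a library of the groups compared. The number over all protein-coding genes rose as well, at 24 h from 457 gained to 1216 without MCAO/R-24 h replicate 1. Among the groups, 0 to 1 region passed p of 0.05, the 1 being Egln1 without either Sham library. CDS shares ranged from 40.9% to 44.0%, 3' UTR shares from 46.4% to 49.9%, shares near the stop codon from 18.6% to 20.2% and RRACH density from 18.7 to 19.2 per kb.

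The higher-scoring 50% of each list left 11.4 marked genes per list, 4 in all lists, 1 region gained and 1 lost at 0 h, 0 lost at 6 h, 2 gained and 1 lost at 24 h, 1 gene gained and 0 lost at 0 h, 2 genes gained at 24 h, and 20.3 RRACH sites per kb. Lists cut to the same number of peaks gave 2 genes lost at 0 h and 1 at 6 h. A window of 400 nt held 40.5% of peak middles, and GGACT occurred 2.33 times per kb. Joining by whole spans or by 50% of the shorter part, largest overlap, UTR before CDS and the longest transcript left each count within 1.5 times and each share within 1 SD.

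Leaving out each library, the difference between MCAO/R and Sham percentiles ranged from -1.98 (without Sham replicate 1) to 3.97 for Vegfa, from -11.6 (without Sham replicate 1) to 31.1 for Pdgfrb, from -1.40 (without Sham replicate 2) to 9.56 for Tjp1, and from -28.6 to 26.1 (without Sham replicate 2) for Egln3, which was also positive without MCAO/R-0 h replicate 1 (1.28), MCAO/R-6 h replicate 2 (5.05) or MCAO/R-24 h replicate 2 (1.5). It ranged from -3.49 to 1.81 (without MCAO/R-6 h replicate 2) for Slc2a1, and from -5.31 to -0.0562 for Egln1. With all 8 libraries, none of these differences had p under 0.05 in the exact permutation test of Sham against MCAO/R. The cause was not tested.

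The labels give the groups the same replicate numbers. Deviations of same-numbered libraries from their group means correlated at 0.0336 to 0.0982 over the regions in every list. These values were weak, and positive for each pair of groups. Whether same-numbered libraries were handled together is not given. With the replicate block, 0 regions passed among the groups. For Sham against MCAO/R the block can go no lower than p = 0.0625 by exact permutation, and a single Sham library no lower than 0.143, so those were not run.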
